A study of Arabidopsis thaliana with 6 samples.

Results

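The RPP1 cluster is a group of immune receptor genes on chromosome 3 of Arabidopsis thaliana. The genes described here are 7 listed loci in and beside it, which are AT3G44400, AT3G44430, AT3G44480 (RPP1), AT3G44510, AT3G44620, AT3G44630 and AT3G44670. A locus was taken as measured where the platform annotation gives it as the single gene of a probe set, the group of probes whose combined brightness stands for a transcript. By that rule 5 of the 7 loci were measured, among 13286 genes measured in all. They are covered by 6 of 22746 tested probe sets, since AT3G44510 has 2. RPP1 itself and AT3G44670 were given no probe set of their own by that annotation, so neither was analysed here. The list was drawn up with the genotype differences of these same arrays in view. The differences of the 7 loci are therefore given as a description, without a test.

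RPP1 encodes an intracellular receptor of the TIR-NBS-LRR class, and AT3G44400, AT3G44630 and AT3G44670 are related genes of the same class. In such a receptor the leucine-rich repeats recognise a pathogen protein, the nucleotide-binding domain drives assembly into a complex, and the TIR domain of the assembled complex is an enzyme that consumes NAD+. The signal passes through EDS1 with PAD4 or SAG101 to helper receptors, and ends in defence gene expression and often local cell death. RPP1 is known for the recognition of the ATR1 protein of the downy mildew pathogen Hyaloperonospora arabidopsidis. Its cluster is known for differences in gene content between natural accessions, and whether the RPP1 gene of ecotype Columbia recognises ATR1 was not tested here. The other listed loci are not receptors of this class. AT3G44620 encodes a protein of the low molecular weight tyrosine phosphatase family and AT3G44510 a protein of the alpha/beta hydrolase fold.

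Transcript levels were measured in whole seedlings on Affymetrix arrays, 3 for transgenic seedlings that overexpressed the rice OsTOP6A1 cDNA, a subunit A gene of topoisomerase 6, and 3 for wild type (WT) seedlings. Both genotypes are labelled as ecotype Columbia, 10 days old, grown in continuous light on agar-gelled MS medium with sucrose. The labels do not give the promoter of the transgene or the number of independent transgenic lines, and they call the 3 samples of each genotype biological replicates without saying how plants were pooled. Values are intensities in arbitrary units on a linear scale, and the number of arrays limits their precision.

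The 6 arrays had medians between 37.5 and 39.3, and 35.0% to 36.1% of the tested probe sets on each array had an intensity of 16 or less. The lowest correlation between 2 arrays of the same genotype was 0.991, and the highest between arrays of different genotypes was 0.978, over log2(intensity + 16). The green tissue genes RCA, LHCB4.1 and PSAE-1 had intensities between 2814.7 and 4405.0 on all arrays. The genes listed for root differed widely in level. PYK10 lay between 3019.0 and 3544.8 and NAI2 between 708.2 and 768.7, while EXPA18 (34.1 to 40.9) and EXPA7 (18.2 to 26.4) were dim. The share of root in the samples was not tested. None of the 7 named markers of green tissue and root (0) passed the genotype test in limma, beside 16.5% of all tested probe sets. Also 0 of them had an unadjusted p under 0.05, and their log2 differences were 0.04 to 0.12. All NAI2 intensities in transgenic seedlings (745.6 to 768.7) lay above all those in WT seedlings (708.2 to 741.1). Of the 5 green tissue genes listed, 3 had a named probe set, and of 3 pollen and seed genes listed, 0 had one. In whole seedlings, fewer cells of a type and less RNA per cell cannot be told apart.

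All 6 probe sets of the listed loci had a higher mean in transgenic seedlings. In limma over all 22746 probe sets, at an adjusted p of 0.05, 5 of the 6 were called higher and 0 lower, beside 16.5% of all tested probe sets called in either direction, 8.18% called higher and 8.31% called lower. Since the list was chosen on this contrast, that count is no test of these loci and nothing is read from it. By their signal the loci fall into 3 groups. AT3G44430 and AT3G44630 had almost no signal in WT seedlings and a moderate signal in transgenic seedlings. AT3G44620 had signal in both genotypes and more in transgenic seedlings. AT3G44400 and AT3G44510 were dim in both genotypes, with no intensity above 20.2.

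Of the receptor genes, AT3G44630 had the larger difference. Its intensity was 79.4, 79.7 and 82.9 in transgenic seedlings, against 3.5, 6.4 and 4.0 in WT seedlings. The 3 transgenic arrays lay close together and far above all 3 WT arrays, on which the gene was below 16. Its mean was 80.7 ± 1.94 in transgenic seedlings and 4.63 ± 1.55 in WT seedlings (SD, n = 3 each). The difference on the log2(intensity + 16) scale was 2.23 (SE 0.07), which understates the change of a gene this dim in WT. With a pseudocount of 1 the log2 difference was 3.89, and with 64 it was 1.08. The annotated gene AT3G44635 overlaps AT3G44630, and which of them the probes match was not tested.

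AT3G44400, the first receptor gene of the cluster in gene order, was also higher in transgenic seedlings, but its signal was low. Its intensity was 8.1, 11.9 and 6.3 in transgenic seedlings, against 0.7, 1.5 and 0.1 in WT seedlings. The genotypes did not overlap, yet no array reached 16, a range that holds at least 35.0% of the probe sets of each array. The log2 difference was 0.56 (SE 0.09) at a pseudocount of 16, 2.51 at 1 and 0.17 at 64, so its size rests mainly on the pseudocount. A ratio of intensities is not given for AT3G44400, AT3G44430 or AT3G44630, since their WT values are near 0. Receptor genes of this class resemble each other in sequence, and whether probes of one gene respond to transcripts of another was not tested. None of the 6 probe sets carries the suffix by which the platform marks probes shared between genes.

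**Figure D1:**
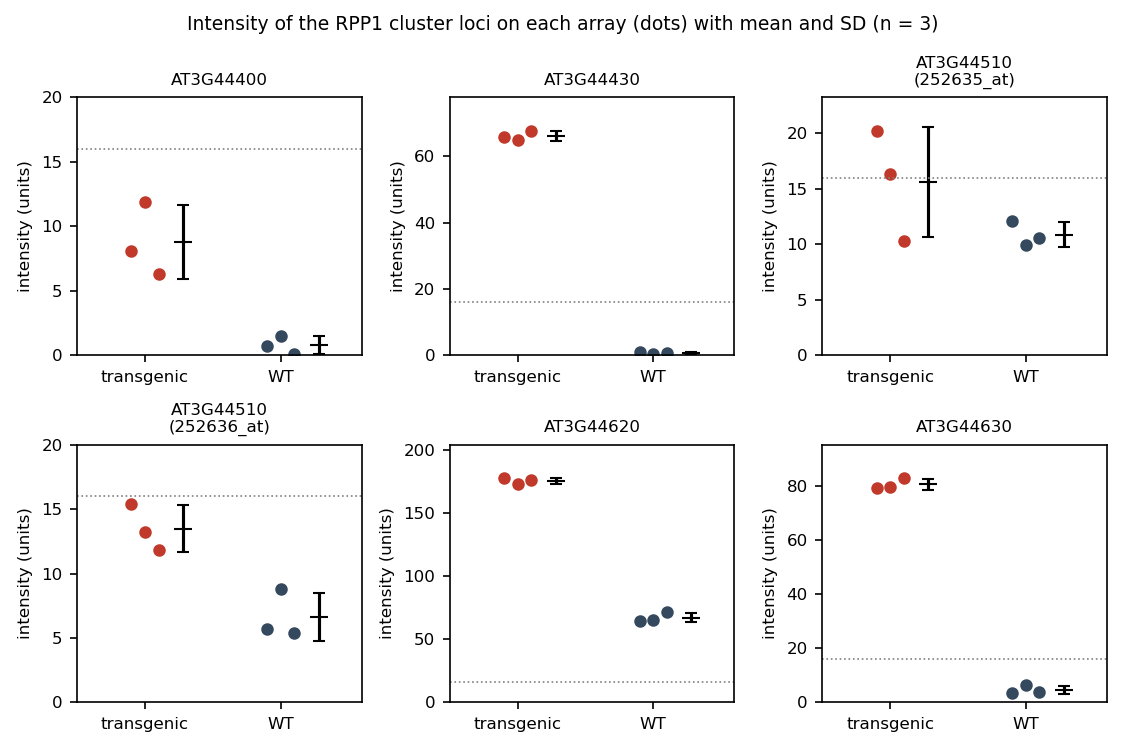
Intensity of each listed probe set (linear axis from 0, arbitrary units) in transgenic and WT seedlings, with a dot for each array and the mean and SD beside them (n = 3). The dotted line is an intensity of 16. AT3G44430, AT3G44620 and AT3G44630 show tight and separate groups, AT3G44400 and probe set 252636_at of AT3G44510 separate groups under the line, and probe set 252635_at of AT3G44510 overlapping groups.

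Among the listed loci, the largest log2 difference at pseudocounts of 1 and 16 belonged to AT3G44430. AT3G44430 is a protein-coding locus that lies between AT3G44400 and RPP1 in gene order. Its intensity was 65.9, 64.8 and 67.6 in transgenic seedlings, against 1.0, 0.5 and 0.6 in WT seedlings. The transgenic arrays differed among themselves by only a few units, and the WT arrays lay at the bottom of the intensity range. Its mean was 66.1 ± 1.41 in transgenic seedlings and 0.7 ± 0.26 in WT seedlings (SD, n = 3 each). The log2 difference was 2.30 (SE 0.06) at a pseudocount of 16, 5.31 at 1 and 1.01 at 64. At 64 AT3G44630 had the larger difference, 1.08. Ordered by the difference at a pseudocount of 16 from the highest, AT3G44430 stood at place 35 among the 22746 probe sets and AT3G44630 at place 39. The annotated gene AT3G44435 overlaps AT3G44430, and the probe set could not be assigned between them here.

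AT3G44620, the phosphatase family gene next to AT3G44630 in gene order with no annotated gene between them, was the only listed locus with intensities well above 16 in both genotypes. Its intensity was 177.9, 173.0 and 176.6 in transgenic seedlings, against 64.6, 65.7 and 71.8 in WT seedlings. Every transgenic array lay far above every WT array. The mean was 176 ± 2.54 in transgenic seedlings and 67.4 ± 3.88 in WT seedlings (SD, n = 3 each), a ratio of 2.61. On the log2(intensity + 16) scale the difference was 1.2 (SE 0.06), with 1.37 at a pseudocount of 1 and 0.87 at 64.

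The 2 probe sets of AT3G44510, the hydrolase fold gene, did not give the same result. Probe set 252636_at had intensities of 15.4, 13.2 and 11.8 in transgenic seedlings, against 5.7, 8.8 and 5.4 in WT seedlings. Its groups did not overlap, although all values were below 16, and the log2 difference was 0.38 (SE 0.08). Probe set 252635_at had intensities of 20.2, 16.3 and 10.3 in transgenic seedlings, against 12.1, 9.9 and 10.6 in WT seedlings. Its lowest transgenic array lay among the WT arrays. Its log2 difference was 0.22 (SE 0.12), and it was 0.12 without transgenic replicate 1 and 0.35 without transgenic replicate 3. That of 252636_at lay between 0.34 and 0.45 over the 6 fits that each left out 1 array.

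**Figure D2:**
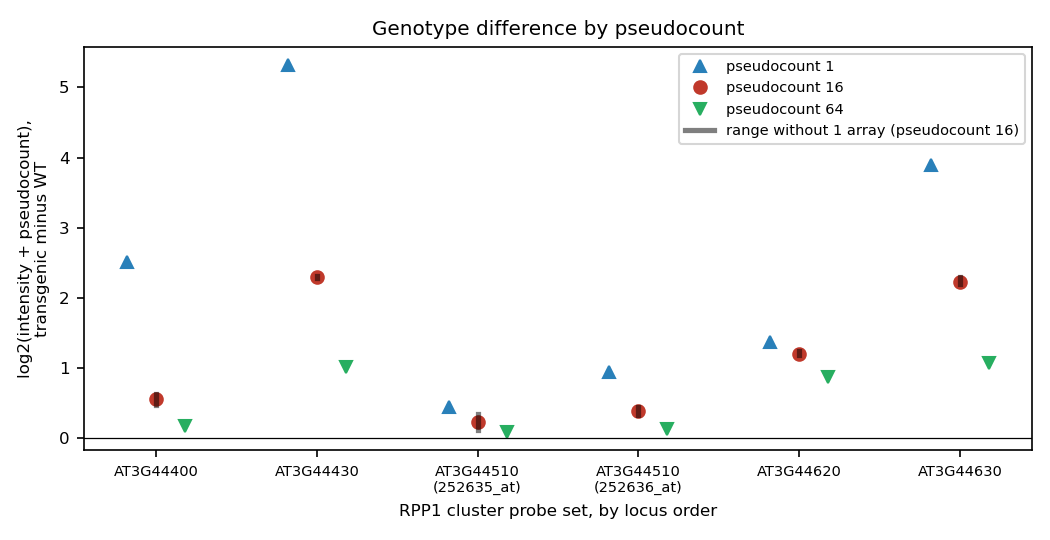
Genotype difference, transgenic minus WT, of each listed probe set on the log2(intensity + pseudocount) scale for pseudocounts of 1, 16 and 64, in locus order, with a bar for the range over the fits that each left out 1 array. The difference stays above 0 throughout, with values of 5.31, 2.30 and 1.01 for AT3G44430 and of 1.37, 1.2 and 0.87 for AT3G44620.

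On the log2(intensity + 16) scale the profiles of AT3G44430 and AT3G44630 across the 6 arrays were nearly parallel. That likeness depends on the pseudocount. With a pseudocount of 1 the genotype difference was 5.31 for AT3G44430 and 3.89 for AT3G44630, and with 64 it was 1.01 and 1.08. After centring each probe set on its own mean, their log2(intensity + 16) values differed by a root mean square of 0.08. The same measure between AT3G44620 and AT3G44630, which stand side by side, was 0.52. Between the receptor genes AT3G44400 and AT3G44630 it was 0.84, and between the 2 probe sets of AT3G44510 it was 0.15. The adjacent genes AT3G44620 and AT3G44630 differed more from each other in size of change than AT3G44430 and AT3G44630, which are separated by many genes. All these profiles share the same 6 arrays and the same genotype split, so the measure mainly compares the size of the genotype difference.

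The same measure was used to find genes elsewhere whose pattern was most like that of the listed genes. RPP1, the gene for which such a search had been planned, was not measured, so AT3G44630 was used, a choice made after its values were seen. Among 7953 named probe sets with a mean intensity of at least 16, the nearest was AT5G28500, with a root mean square difference of 0.07 and means of 761 ± 28.1 in transgenic seedlings and 151 ± 10.9 in WT seedlings (SD, n = 3 each). The next were AT4G20480 (0.08), AT2G21860 (0.11), AT1G12400 (0.11) and AT4G16870 (0.12). AT4G16870 was, like AT3G44630, below 16 on all WT arrays, with 101.0, 116.6 and 99.2 in transgenic seedlings, against 9.0, 7.6 and 9.3 in WT seedlings. The listed loci were left out of this search, and AT3G44430, at 0.08 from AT3G44630, would otherwise have stood among the nearest. By their locus names none of the 5 genes found lies on chromosome 3, which is partly set by that exclusion. The search used a pseudocount of 16 only, and the order at other pseudocounts was not examined. Unlike AT3G44630, AT5G28500 was far above 16 on all WT arrays (138.5 to 159.0).

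A signal below or at 16 on all WT arrays and above 16 on all transgenic arrays was found for 194 of the 22746 probe sets, or 0.853%. The opposite pattern, at or below 16 in transgenic and above it in WT, was found for 155, or 0.681%. Of the 6 listed probe sets, 2 had the first pattern, AT3G44430 and AT3G44630. In 5 of the 6 all transgenic arrays lay above all WT arrays, and in 0 of the 6 did all lie below. Over all tested probe sets these shares were 15.0% and 19.9%, and the list's choice on this contrast applies to these counts too.

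The loci around the listed ones were compared in the same fit. From AT3G44000 to AT3G45100, 50 probe sets of other loci were tested. Of these, 6 rose and 2 fell in transgenic seedlings, or 16%, beside 16.5% of all tested probe sets (8.18% higher, 8.31% lower). The 50 were dimmer as a group, since 27 had a mean of 16 or less, beside 8005 of all 22746. In the fit limited to means of at least 16, 9 of 23 were called (6 higher, 3 lower). Over all probe sets of that fit, 4059 of 14745 were called (1837 higher, 2222 lower). The median log2 difference of the 50 was 0.01, beside -0.02 over all tested probe sets. The listed loci, chosen on this contrast, were left out of the 50, so these counts describe the other loci and not the region as a whole.

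**Figure D3:**
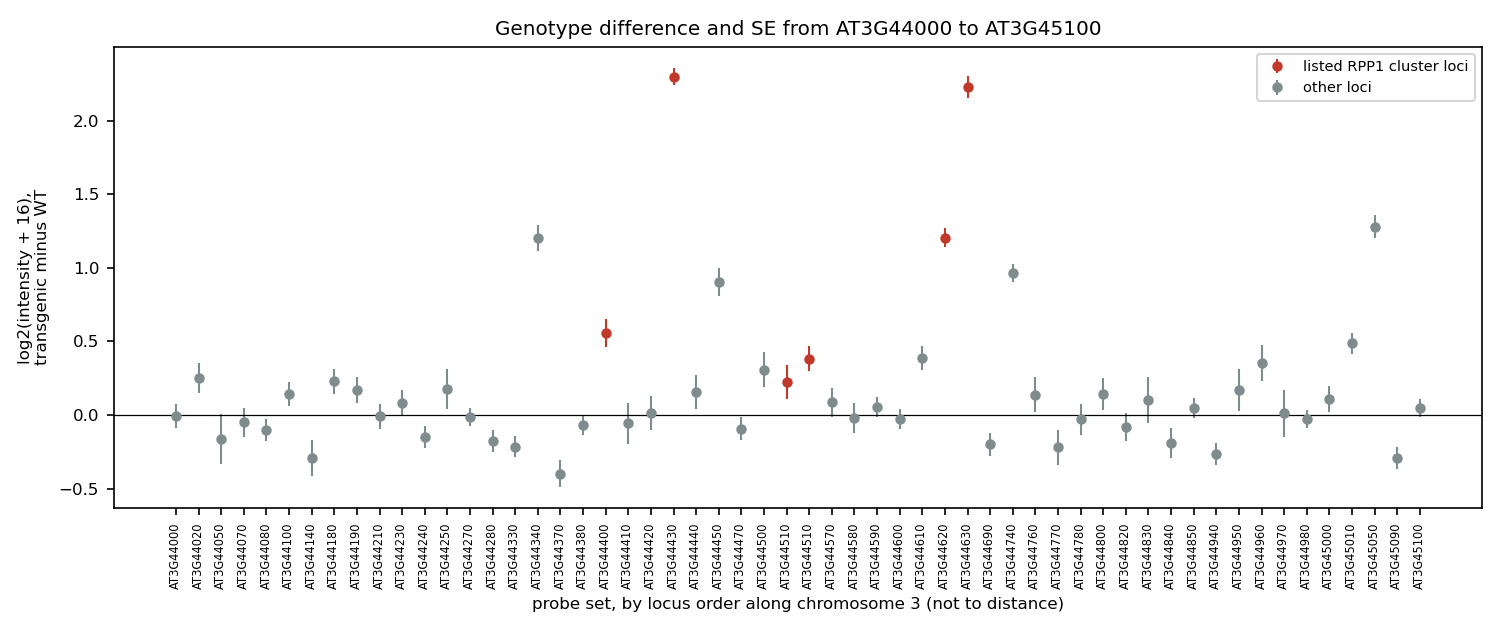
Genotype difference in log2(intensity + 16), transgenic minus WT, with its SE for each named probe set from AT3G44000 to AT3G45100 in locus order, without distances. The listed loci AT3G44430 and AT3G44630 stand highest at 2.30 and 2.23, and most of the other loci lie near 0.

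Inside the span from AT3G44400 to AT3G44670 the RefSeq gene table holds 38 annotated genes, 9 of them pseudogenes, and 16 had a named probe set. Of the 11 that are not listed loci, 2 rose and 0 fell in limma, or 18.2%, near the 16.5% of all tested probe sets. Of those with a negative log2 difference, 0 had an unadjusted p under 0.05. AT3G44450, between AT3G44430 and RPP1, had intensities of 274.9, 223.4 and 217.7 in transgenic seedlings, against 122.9, 119.9 and 115.9 in WT seedlings. Every transgenic array lay above every WT array, and the log2 difference was 0.90 (SE 0.09, limma adjusted p = 0.000878). AT3G44610, a gene for a protein kinase of the AGC family beside AT3G44620, had 32.4, 31.1 and 32.5 in transgenic seedlings, against 25.0, 18.7 and 18.9 in WT seedlings. Its log2 difference was 0.38 (SE 0.08, limma adjusted p = 0.0188), a call that held without WT replicate 1 only and ended without each other array, with adjusted p of up to 0.069.

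The remaining named genes of the span did not pass. AT3G44590, a gene for an acidic protein of the large ribosomal subunit, averaged 726 ± 42.2 in transgenic seedlings and 698 ± 12.2 in WT seedlings (SD, n = 3 each, limma adjusted p = 0.659). CYP71 (AT3G44600), a cyclophilin gene, averaged 99.0 ± 6.14 in transgenic seedlings and 101 ± 3.67 in WT seedlings (SD, n = 3 each, limma adjusted p = 0.849). Both lie between AT3G44510 and AT3G44620 in gene order. The last 7 probe sets, for the pseudogenes AT3G44410, AT3G44420, AT3G44470 and AT3G44500 and for AT3G44440, AT3G44570 and AT3G44580, had means of 16 or less over the 6 arrays. Those of AT3G44470 and AT3G44500 carry a suffix for probes shared between genes.

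Before the span, 1 of 19 probe sets rose and 1 fell, or 10.5% called, beside 16.5% of all tested probe sets. CEF (AT3G44340), which encodes a SEC24-type protein of the coat of transport vesicles, had 282.9, 315.8 and 265.7 in transgenic seedlings, against 122.1, 119.3 and 106.9 in WT seedlings. Its groups lay far apart, and the log2 difference was 1.2 (SE 0.09, limma adjusted p = 0.000146). AT3G44370 fell by 0.40 on the log2 scale (limma adjusted p = 0.022), with means of 12.5 ± 2.38 in transgenic seedlings and 21.5 ± 2.61 in WT seedlings (SD, n = 3 each). That call ended without WT replicates 2 or 3 or transgenic replicates 1 or 3, with adjusted p of up to 0.0769, and at a pseudocount of 1 (adjusted p = 0.0534). AT3G44380, the named neighbour of AT3G44400 on that side, had 58.8, 63.1 and 67.6 in transgenic seedlings, against 67.8, 67.2 and 65.5 in WT seedlings, and the groups overlapped.

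After the span, 3 of 20 probe sets rose and 1 fell, beside 16.5% of all tested probe sets called (8.18% higher, 8.31% lower). AT3G45050 had 155.2, 148.4 and 164.1 in transgenic seedlings, against 49.7, 56.5 and 58.4 in WT seedlings, with a log2 difference of 1.28 (SE 0.08, limma adjusted p = 5.95e-05). AT3G44740 had 39.6, 38.0 and 41.0 in transgenic seedlings, against 12.4, 13.1 and 11.9 in WT seedlings. It was the only unlisted locus of the region with the pattern of AT3G44430 and AT3G44630, at or below 16 on all WT arrays and above it on all transgenic arrays, and its log2 difference was 0.96 (SE 0.06, limma adjusted p = 8.42e-05). The serine carboxypeptidase-like gene scpl48 (AT3G45010) had a log2 difference of 0.49 (limma adjusted p = 0.00425). AT3G45090 fell by 0.29 (limma adjusted p = 0.0381), a call that ended without each array except WT replicate 3, with adjusted p of up to 0.112, and with a pseudocount of 1 (adjusted p = 0.0763) or with replicate number as a block (adjusted p = 0.0666). AT3G44690, the nearest named locus after AT3G44670, had 11.9, 8.5 and 10.6 in transgenic seedlings, against 15.7, 14.6 and 12.3 in WT seedlings, and did not pass.

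**Figure D4:**
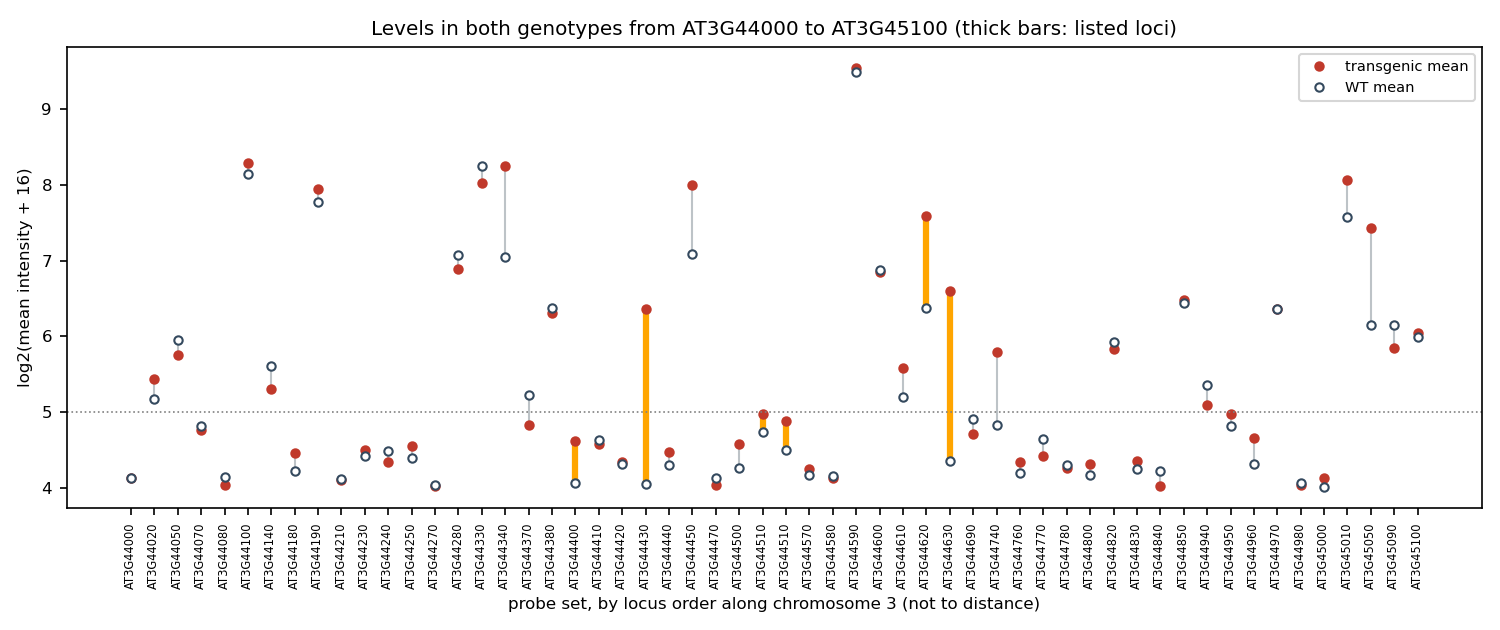
Mean level of each named probe set from AT3G44000 to AT3G45100 in transgenic seedlings (filled) and WT seedlings (open), as log2(mean intensity + 16) in locus order, with thick bars for the listed loci and a dotted line at an intensity of 16. The bars of AT3G44430 and AT3G44630 start near the bottom in WT seedlings and cross the line, and levels are to be read within a probe set, not between them.

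Few partners of TIR-type receptors counted as measured by the rule used here, a single annotated gene for a probe set. That rule kept 13513 of the 22746 tested probe sets, so a gene left out by it may still have probes on the array. Of 29 genes listed for receptor signalling, from EDS1 and the helper receptors to salicylic acid synthesis and the PR genes, 2 had a named probe set of their own. In limma 0 of these passed, beside 16.5% of all tested probe sets, and 0 had an unadjusted p under 0.05. SAG101, a partner of EDS1, had 13.1, 18.8 and 21.6 in transgenic seedlings, against 30.9, 18.8 and 25.3 in WT seedlings. Its groups overlapped, and the log2 difference was -0.27 (SE 0.13, limma adjusted p = 0.218), and -0.17 without either transgenic replicate 1 or WT replicate 1. SGT1A, a co-chaperone of immune receptors, averaged 84.4 ± 5.8 in transgenic seedlings and 88.1 ± 19.2 in WT seedlings (SD, n = 3 each), with a log2 difference of -0.04 (SE 0.13, limma adjusted p = 0.885). The other genes of the pathway list, EDS1, PAD4 and NDR1 among them, were not analysed here.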

How the data were processed

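Per the labels' protocols, TRIzol RNA was made into biotinylated cRNA for Affymetrix arrays. The deposited unit is a linear intensity for each probe set, and the software behind them is not given in the sources used here. The lowest array mean after trimming 2% at each end was 100.0, and the array medians lay between 37.5 and 39.3. No further normalization was applied in the main fit. The 64 control probe sets were left out. Probe sets with 1 gene in the platform annotation (13513 tested) were named by gene identifier from RefSeq, assembly TAIR10.1 (13436 matched), which also gave the gene order. The build behind the probe sets is not stated, so no coordinates are given.

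Genotypes were compared as log2(intensity + 16), transgenic minus WT, in limma 3.58.1 (lmFit, then eBayes; R 4.3.3), with Benjamini-Hochberg adjustment over 22746 probe sets and a threshold of 0.05. The script was tested on simulated data. Alternatives were quantile normalization, median centring, pseudocounts of 1 and 64, removal of dim or cross-hybridising probe sets, a replicate block and omission of each array. The loci, the region and the pathway list were chosen with earlier results of these data known. Named genes were all listed loci, every called neighbour, the called pathway genes with EDS1, PAD4, SAG101 and NDR1 where measured, and the 5 probe sets of the most similar pattern. AT3G44380, AT3G44590, CYP71, AT3G44690 and SGT1A were named after their values were seen. Other receptor genes of the class were not analysed here, because the gene table holds no text on protein class.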

Additional observations from a re-analysis of the deposited data

How the results depend on the processing

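Over all probe sets the count of 3751 calls became 2143 with a pseudocount of 1 and 2181 to 3433 without single arrays. Restricting the test to means of at least 16 removed 3 of the 6 RPP1 cluster probe sets and left 3 calls, by construction. Over all probe sets that restricted test called 4059 of 14745. Without single arrays 4 to 5 of the 6 were called, and 5 to 8 of the 50 neighbouring probe sets. Probe set 252636_at was not called without WT replicate 1 or 3 or transgenic replicate 1 or 2. The count of neighbours was 5 without WT replicate 2, transgenic replicate 1 or transgenic replicate 3. The listed loci were chosen on this contrast, so their calls in these fits are no test of them and nothing is read from them. The log2 difference of SGT1A lay between -0.14 and 0.11 without single arrays, with a changed sign without WT replicate 1 (0.11) and transgenic replicate 3 (0.01), uncalled throughout.

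Same-numbered arrays of the 2 genotypes had correlations of 0.191, 0.0572 and 0.113 between their deviations from the genotype means. Arrays with different numbers were not compared in this way, so these values cannot show whether same-numbered arrays were paired. A replicate block gave 3592 calls over all 22746 probe sets, 5 for the RPP1 cluster, 7 for the neighbours and 0 for the pathway list. The choice of the listed loci on this contrast applies to their count here too. Alternatives for other receptor genes were not run, since the list could not be formed.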
